A study of Mus musculus with 2 samples.

Results

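The 4675 regions described here were open in both libraries of mouse T helper 2 (Th2) cells and lay in the first introns of protein-coding genes. Peaks of the deposited lists were joined where they overlapped by 1 bp or more. A joined region was kept when it held peaks of both replicates, when its centre lay in intron 1 of the longest transcript of a protein-coding gene, in no exon, and when it was over 1 kb from every protein-coding start. These members made up 10.6% of the 44058 regions shared on the 21 main chromosomes (95% Wilson interval 10.3 to 10.9%, which like all intervals below covers counting error only). Another 9985 shared regions were centred in later introns, 15160 between genes, 12103 within 1 kb of a start, 1392 in exons and 743 elsewhere in genes.

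Open chromatin had been profiled by ATAC-seq, a method that reads out where a transposase can reach the DNA. Peak names also carry a time in hours and an ASTARR insert, which no source used here explains. If inserts of a cloned library were sequenced, regions and folds would describe those. The study consists of 1 group of 2 biological replicates of primary Th2 cells from the mouse strain C57BL/6NJ, with no control and no other treatment or cell type to compare, so values of both replicates are set side by side without p-values. Sex was not collected, age is unknown, and the labels give both replicates the same donor record. Whether separate animals were used is not stated, so the difference between replicates may be only technical. The cell identity was checked on promoters: all 10 markers of Th2 and CD4 T cells had an open region within 1 kb of a start, among them Gata3, Il4, Il5 and Il13. Of 13 Th2 list genes described further on, 11 had an open region at the start of the longest transcript, while Il10 and Ptgdr2, which encodes the prostaglandin receptor CRTH2, had none. Tbx21 of the Th1 markers also had one, while Ifng, Il17a, Foxp3 and the 12 markers of CD8 T, natural killer, B, myeloid, mast and non-haematopoietic cells had none.

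The first intron separates the first exon of a transcript from the rest of the gene. In many genes it is the longest intron, and enhancers and other binding sites of transcription factors are known from first introns, including those of cytokine and receptor genes in T cells. In helper T cells, AP-1, ETS and RUNX factors occupy many such elements, GATA3 and STAT6 direct the Th2 program, and CTCF marks the anchors of chromatin loops.

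Examples of the DNA under these regions are given first, since the motif counts below rest on such windows. Each is the 200 bp around the summit in replicate 1, on the + strand of GRCm38 (mm10), with the matches of 1 motif in capitals. For each motif the window is the one of best mean fold rank in the first intron of a gene from the T cell lists. The AP-1 window (chr11:34763836-34764035) lies 20.1 kb into Dock2, which encodes a Rac activator needed for lymphocyte migration. The ETS window (chr9:69034508-69034707) lies 381 kb into Rora, a nuclear receptor gene, and the RUNX window (chr3:139064245-139064444) 10.8 kb into Rap1gds1. The STAT window (chr6:115382606-115382805) lies 21.95 kb into Pparg, a nuclear receptor gene used by Th2 cells. The IRF window (chr2:163232200-163232399) lies 29.2 kb into Tox2 and the CTCF window (chr1:165853792-165853991) 65.2 kb into Cd247, which encodes the zeta chain of the T cell receptor complex.
AP-1, Dock2: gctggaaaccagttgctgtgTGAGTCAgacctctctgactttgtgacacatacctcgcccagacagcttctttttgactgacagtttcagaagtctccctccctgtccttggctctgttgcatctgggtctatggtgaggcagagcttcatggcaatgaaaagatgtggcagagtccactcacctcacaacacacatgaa
ETS, Rora: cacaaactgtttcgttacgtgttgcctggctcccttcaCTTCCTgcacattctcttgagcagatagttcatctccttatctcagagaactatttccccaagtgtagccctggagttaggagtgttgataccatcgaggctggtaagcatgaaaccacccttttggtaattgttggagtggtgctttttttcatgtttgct
RUNX, Rap1gds1: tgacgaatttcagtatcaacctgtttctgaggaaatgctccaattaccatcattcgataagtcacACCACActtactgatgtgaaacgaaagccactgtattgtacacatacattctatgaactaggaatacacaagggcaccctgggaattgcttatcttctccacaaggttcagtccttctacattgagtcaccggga
STAT, Pparg: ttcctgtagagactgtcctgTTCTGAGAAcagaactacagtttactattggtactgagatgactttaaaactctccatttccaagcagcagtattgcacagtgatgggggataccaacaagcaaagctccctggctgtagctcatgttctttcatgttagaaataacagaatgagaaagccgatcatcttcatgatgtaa
IRF, Tox2: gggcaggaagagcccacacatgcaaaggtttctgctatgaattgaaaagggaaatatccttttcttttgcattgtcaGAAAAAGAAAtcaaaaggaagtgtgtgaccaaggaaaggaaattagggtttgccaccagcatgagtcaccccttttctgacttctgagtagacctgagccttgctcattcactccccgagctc
CTCF, Cd247: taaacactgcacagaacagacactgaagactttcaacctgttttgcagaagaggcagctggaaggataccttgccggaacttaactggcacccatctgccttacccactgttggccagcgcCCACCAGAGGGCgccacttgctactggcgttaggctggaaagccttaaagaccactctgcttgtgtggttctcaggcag

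The windows differed in strength. The fold enrichment is the authors' value at the summit of a peak, read here as a ratio to local background. It was 14.3 in replicate 1 and 15.02 in replicate 2 for the Dock2 region, 13.7 and 14.6 for Rora, 13.3 and 14.2 for Rap1gds1, and 12.1 and 16.4 for Pparg. The Tox2 region had 4.44 and 7.04, and the Cd247 region with the CTCF motif 4.31 and 3.11. The first 4 were far above the median member in both replicates, and the Cd247 region was below it in both.

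The members had a median fold enrichment of 5.21 in replicate 1 (25th to 75th percentile 3.89 to 7.23) and 5.90 in replicate 2 (4.28 to 8.25). Regions of later introns had medians of 5.47 and 6.32, and promoter regions of 9.22 and 10.4. Over all distances, first-intron regions thus had the lower median of the 2 kinds of intronic region in both replicates, by less than the difference between the replicates. The order varied with distance to the start. At 1 to 2 kb first introns had the higher medians, 4.28 and 4.66 against 3.82 and 4.30. At 2 to 5 kb they had the lower, 4.39 and 4.93 against 4.66 and 5.27. Summit pileups, worked out from fold and p, had a median of 33 counts in replicate 1 and 47 in replicate 2 for members, against 29 and 40 for later introns. Pileups therefore ran in the other order from the folds. Replicate 2 gave the higher fold in 3146 of the 4675 members (67.3%), with a median ratio over replicate 1 of 1.10 and 90% of ratios between 0.743 and 1.69. Across the 4675 regions the folds of the replicates had a Spearman correlation of 0.824, a description over regions of the same 2 libraries. Summits of the replicates lay a median of 31 bp apart.

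**Figure D1:**
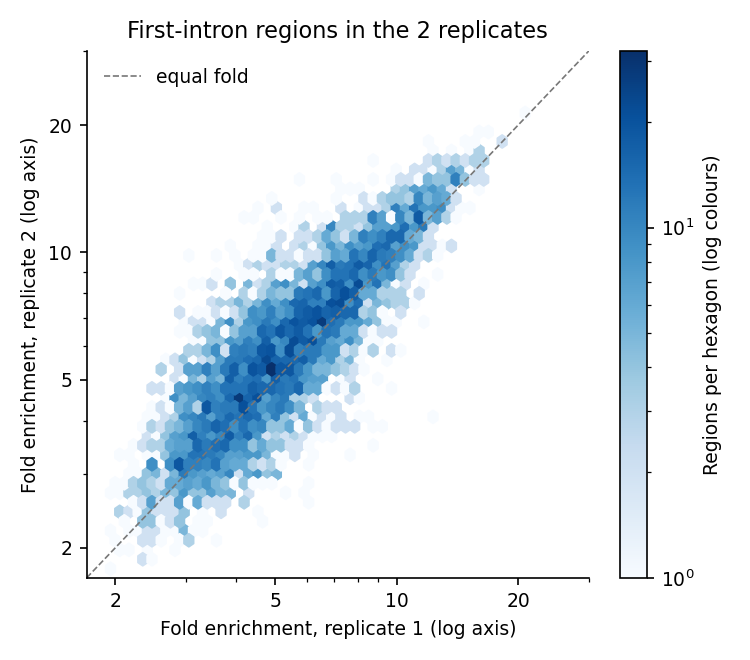
Fold enrichment of the 4675 first-intron regions in replicate 1 (horizontal, log axis) and replicate 2 (vertical, log axis), as hexagons coloured by the number of regions, with a dashed line of equal fold. Most of the cloud runs along the line and slightly above it, with a median ratio of replicate 2 over replicate 1 of 1.10.

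The members were stronger and wider than first-intron regions found in 1 replicate alone, of which there were 870 in replicate 1 (15.7% of its first-intron regions) and 2343 in replicate 2 (33.4%). The median fold was 5.21 in members and 3.18 in regions of replicate 1 alone, and 5.90 in members and 3.47 in regions of replicate 2 alone. The median width was 626 bp in members, which span the joined peaks, against 256.5 bp and 258 bp. No region of replicate 1 alone exceeded a fold of 7.88, and none of replicate 2 alone a fold of 11.7. Membership required a peak in both lists, which favours strong peaks, so the contrast in fold is partly set by the rule.

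Members had a median width of 626 bp (25th to 75th percentile 443.5 to 859.5), against 605 bp in later introns and 1162 bp at promoters. Strong members were wide: with members split into 5 bins of equal size by mean fold rank, the strongest bin had a median width of 832.5 bp and the weakest 456 bp. The 5 widest were at Tmem267 (7074 bp), Pdgfb (3967 bp), Midn (3745 bp), Kdm6b (3493 bp) and A430078G23Rik (2993 bp). Pdgfb encodes a subunit of a platelet-derived growth factor and Kdm6b a histone H3 demethylase. The regions of Pdgfb, Midn and A430078G23Rik had their centres 1.67, 1.36 and 1.01 kb from the start, that of Kdm6b 3.32 kb, and that of Tmem267 111 kb. Those of Pdgfb, Midn and A430078G23Rik were wide enough to span the start itself, and were members by the place of their centres alone. The summit windows of Pdgfb and Midn had 69.5% and 66.0% GC and CpG ratios of 0.823 and 0.860, and that of A430078G23Rik 50.5% and 0.236. The Tmem267 region (chr13:119595943-119603016) was a single peak in both lists, with folds of 9.34 and 12.2 and pileups of only 41 and 57 counts. Its summits did not coincide, at 119600387 in replicate 1 and 119597063 in replicate 2, against a median gap of 31 bp over members. Repeats covered 65.5% of its summit window in replicate 1, and whether mapping shaped this region was not tested. The Midn region had folds of 5.68 and 5.13 on pileups of 171 and 223 counts.

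The 15 strongest members, by the mean of their fold ranks in both replicates, had folds of 14.8 to 20.8 in replicate 1 and 16.3 to 21.4 in replicate 2. The strongest was in Cldn34d (chrX:76598559-76599119), 4.09 kb from the start, with 20.8 and 21.4 on pileups of 121 and 122 counts. It was followed by a region in Gm17655 (chr5:110057678-110058599) with 16.5 and 19.4. The next, with 18.3 and 18.2 at chr7:114466090-114466949, was in Pde3b, which encodes a phosphodiesterase for cyclic nucleotides. The region of Efcab12 had 18.2 and 17.7, and that of Ccdc148, 105 kb into the intron, 15.97 and 17.5. Folds of 16.2 and 16.9 were found at Kdm7a, which encodes a histone demethylase, and of 15.6 and 19.1 at Akap6. The others were at Pip4k2a, Mctp2, Pitpnc1, Aig1, Akap13, Dthd1, Tmcc3 and Utrn. The regions of Efcab12 and Tmcc3 were centred 408 and 241 bp from an annotated transcript start, when transcripts of every kind are counted. Pip4k2a encodes a phosphoinositide kinase, Akap13 an anchoring protein of protein kinase A and Utrn the cytoskeletal linker utrophin. None of the 15 belongs to the T cell lists used here. The windows of Cldn34d and Akap6 held none of the 16 motifs searched, while that of Mctp2 held AP-1, ETS, RUNX, E-box and IRF matches together.

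First-intron regions were mostly well inside the intron. The median distance from the centre to the start of the transcript was 14.5 kb (25th to 75th percentile 6.39 to 33.4 kb). Of the members, 6.78% lay within 2 kb of the start, 20.1% within 5 kb, 38.0% within 10 kb, 59.8% within 20 kb and 93.7% within 100 kb. With each intron cut into 10 equal parts, the first, some of which falls under the 1 kb limit, held 6.97% of members, the second 8.77% and the fifth 11.1%. From part 4 to part 10 the shares were between 10.2 and 11.1%. The members closest to the start were the weakest: the median fold was 4.28 in replicate 1 and 4.66 in replicate 2 at 1 to 2 kb, 5.16 and 5.90 at 5 to 10 kb, and 5.67 and 6.53 at 20 to 50 kb. Later-intron regions had medians of 3.82 and 4.30 at 1 to 2 kb, and 5.48 and 6.39 at 20 to 50 kb.

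A gene model of unusual length set the far end of these distances. Gm20388, an annotated protein-coding gene of chromosome 8 that spans other genes, has an intron 1 of 4384 kb, and 129 members have their centre in it. For 104 of them its own start is the nearest start of a transcript whose intron 1 holds them, 27 also lie in intron 1 of another gene, and 21 in a later intron of another. The 5 farthest members, 4014 to 4316 kb from their start, are all of this model. Without it 4573 members remain, with a median distance of 14.0 kb, and the 5 farthest are all in Rora, 468 to 521 kb from its start. The farthest of them had folds of 6.50 and 4.29, and the third, 503 kb away, 8.43 and 9.64.

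Per unit of sequence, open regions were denser in first introns than in later introns. Eligible sequence is what the rule could have chosen: intronic, in no exon and over 1 kb from protein-coding starts. It came to 214 Mb for first introns and 641 Mb for later introns, with 21.9 members per Mb (exact Poisson interval 21.3 to 22.5) against 15.6 later-intron regions per Mb (15.3 to 15.9) and 9.32 per Mb between genes (9.17 to 9.47). The ratio of first to later introns was 1.41, and it was 1.40 without Gm20388. Sequence in first introns lies nearer to starts, so the densities were also compared at matched distance to the nearest protein-coding start. At 10 to 20 kb there were 28.5 regions per Mb in first introns (26.9 to 30.3), 21.6 in later introns (20.6 to 22.6) and 20.4 between genes (19.7 to 21.2). At 2 to 5 kb the values were 23.3, 18.9 and 17.8 per Mb. At 1 to 2 kb the intervals of first introns (24.4 to 29.7) and later introns (21.1 to 28.0) overlapped. At 50 to 100 kb first introns held 13.7 per Mb and later introns 14.8, and beyond 100 kb 5.89 and 6.85, again with overlapping intervals, while intergenic sequence held 11.01 and 3.29. At 20 to 50 kb the values were 21.6 and 19.7 per Mb, with intervals that just overlapped. First introns thus exceeded later introns, with intervals apart, from 2 to 20 kb.

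**Figure D2:**
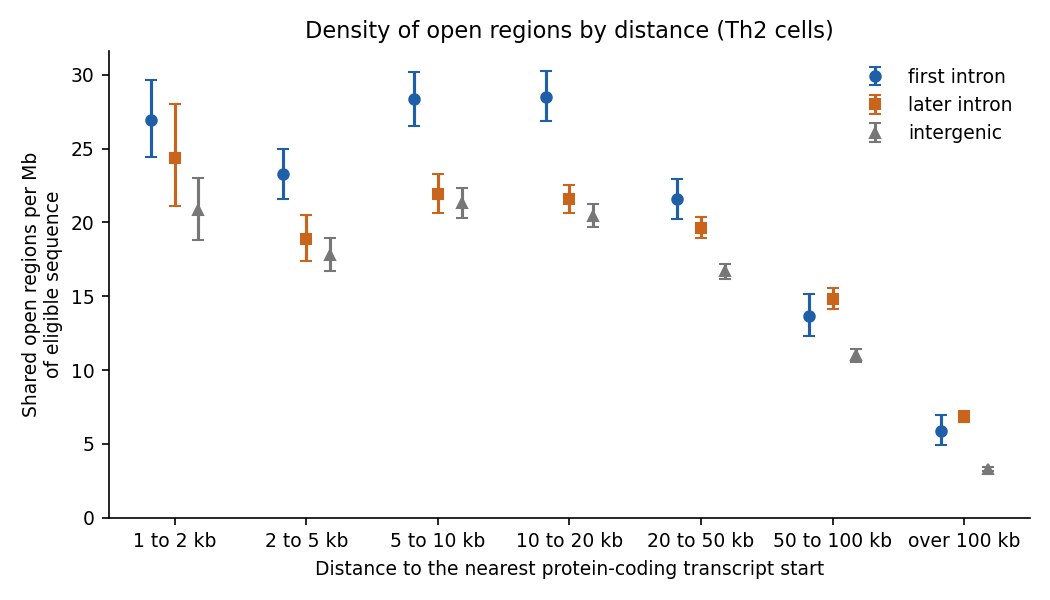
Shared open regions per Mb of eligible sequence (vertical, with exact 95% Poisson intervals) by distance to the nearest protein-coding start (horizontal, in 7 bins), for first introns, later introns and intergenic sequence. First introns lie highest from 5 to 20 kb, near 28 per Mb, and all 3 classes fall beyond 50 kb.

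Members were concentrated in a minority of genes. Of 21851 protein-coding genes, 15154 had eligible sequence in intron 1, and 2483 of these (16.4%, 15.8 to 17.0%) held at least 1 member. Of the 2483 genes, 1567 held 1 member, 459 held 2, 304 held 3 or 4, 126 held 5 to 9, and 27 held 10 or more. The share of genes with a member rose with intron length up to 20 to 50 kb and was lower over 100 kb. It was 3.33% for an intron 1 under 5 kb, 20.6% at 5 to 20 kb, 47.1% at 20 to 50 kb, 47.0% at 50 to 100 kb and 36.6% over 100 kb. The mean number of members per gene rose from 0.0341 under 5 kb to 2.00 over 100 kb. Per Mb of eligible sequence there were 29.8 at 20 to 50 kb, 22.4 at 50 to 100 kb and 10.6 over 100 kb. Neighbouring members of the same intron were a median of 7.49 kb apart (25th to 75th percentile 3.54 to 14.3 kb, 2255 neighbour pairs), and 33.3% of pairs were within 5 kb.

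The share of introns with a member went with the state of the promoter. A promoter was taken as open when a shared region was centred within 1 kb of the start of the longest transcript. It was open in 81.4% of the 2483 genes with a member (79.9 to 82.9%) and in 54.9% of the 12671 genes with none (54.1 to 55.8%). For genes with an intron 1 of 20 to 50 kb, 57.4% of those with an open promoter held a member and 21.5% of those without. Over 100 kb the shares were 69.9% and 13.7%. The density in genes with both kinds of intron followed the same split. With an open promoter there were 32.0 regions per Mb in first introns and 21.6 in later introns, a ratio of 1.48. Without one there were 7.68 (7.10 to 8.29) and 7.15 (6.82 to 7.50), a ratio of 1.07 with overlapping intervals. For genes with an intron 1 of 5 to 100 kb the ratio was 1.57 with an open promoter (35.5 and 22.6 per Mb) and 1.43 without (11.2 and 7.82 per Mb), so the low ratio without an open promoter did not extend to introns of this length. The fold of members was slightly lower under open promoters, without a test of the difference, with median folds of 5.16 and 5.83 under open promoters and 5.44 and 6.32 under the others.

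The genes with most members after Gm20388 were Cmss1 with 22 in an intron of 283 kb (folds from 2.20 to 10.7 in replicate 1 and 2.67 to 12.2 in replicate 2), and Bcl2 and Maml2 with 20 each in 169 and 321 kb. Bcl2 encodes a protein that blocks apoptosis at mitochondria, and Maml2 a coactivator of Notch receptors. Maml3, of the same coactivator family, held 16 in 247 kb, and Ext1, which encodes an enzyme that builds heparan sulfate, 16 in 237 kb. The 20 regions of Bcl2 lay from 6.98 to 169 kb from its start, with folds from 2.09 to 10.6 in replicate 1 and 2.87 to 10.5 in replicate 2. Those of Maml2 ranged from 2.98 to 10.2 and from 2.74 to 12.9. Cmss1 and Filip1l share sequence: Filip1l lies inside the first intron of Cmss1, and its 14 regions are counted for both.

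Of the 27 genes with 10 or more members, 5 are on the list of T cell transcription factors. Tox, an HMG-box factor of T cell development and exhaustion, held 14 in 148 kb, and Fli1, an ETS factor, 13 in 64.4 kb. Foxp1, a forkhead factor of T cell quiescence, held 12 in 127 kb, Rora 11 in 542 kb, and Bach2, a repressor that restrains effector differentiation, 10 in 78.1 kb. The regions of Fli1 had folds of 2.94 to 8.59 in replicate 1 (median 5.82) and 2.67 to 11.5 in replicate 2 (median 7.39). Those of Tox had 3.51 to 11.2 (median 6.25) and 2.83 to 11.4 (median 6.29). The strongest of Foxp1 reached 13.8 and 15.6, at 126 kb from the start. All 11 regions of Rora lay more than 200 kb into the intron, from 208 to 521 kb, and left the first stretch of the intron without a member. The starts of the longest transcripts of Rora, Foxp1, Hivep3 and Filip1l had no open region within 1 kb, unlike the other genes with 10 or more members.

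Of the same 27 genes, 1 is on the list of antigen receptor signalling and 1 on that of adhesion and migration, and the others described here are on none. Prkcq, which encodes the protein kinase C theta of the T cell receptor pathway, held 10 members in 54.4 kb, or 18.6 per 100 kb of eligible intron, and Prkch, another protein kinase C gene, 10 in 63.8 kb. Ptk2b, which encodes a relative of focal adhesion kinase, held 12 in 67.3 kb, Elmo1, a partner of DOCK proteins in Rac activation, 12 in 94.6 kb, and Sik3, a salt-inducible kinase gene, 11 in 110 kb. Smad3, a mediator of TGF-beta signals, held 10 in 89.5 kb and Dock10, which encodes an activator of small GTPases, 10 in 110 kb. Hivep2 held 11 and Hivep3 10; both encode large zinc finger proteins. Tnfaip8 held 12, Abtb2 11, and Znrf3, Rbms1, Jazf1 and Dip2c 10 each. Znrf3 encodes a ubiquitin ligase that removes Wnt receptors. Some of these genes had as many or more shared regions in their later introns, with 30 in Bach2, 21 in Foxp1 and 13 in Elmo1, while Smad3 had 0. Bcl2 has no later intron in its model.

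**Figure D3:**
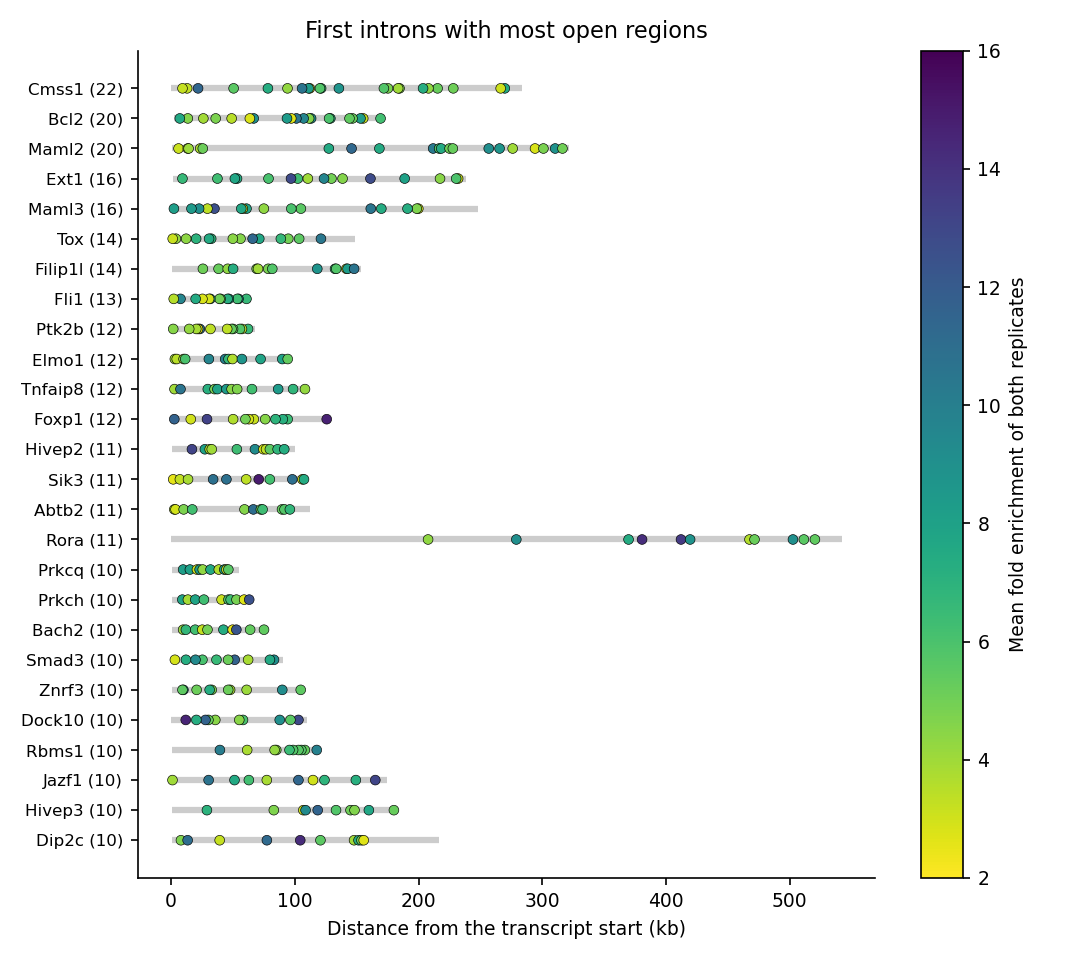
Positions of open regions in the 26 first introns with 10 or more members, Gm20388 left out; the grey bar is the intron, the horizontal axis the distance from the transcript start in kb, and each point a region coloured by its mean fold over both replicates. Counts stand beside the gene names, and the regions of Rora begin 208 kb from its start.

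Among introns with at least 4 members, the densest were short. Pgs1 had 5 members in 10.4 kb, or 49.3 per 100 kb of eligible intron, Ppp1r3f 4 in 8.96 kb, Gpr183 4 in 9.92 kb, Sh2d1a 4 in 12.4 kb and Plekha2 4 in 13.5 kb. Gpr183 encodes an oxysterol receptor that guides lymphocyte positioning, and Sh2d1a the adaptor SAP of SLAM receptors. The median folds of their regions were below those of all members: in the 2 replicates 2.52 and 2.76 for Pgs1, 2.78 and 3.19 for Ppp1r3f and 2.99 and 3.94 for Gpr183. Sh2d1a had medians of 4.41 and 4.32 and Plekha2 of 4.38 and 4.70. Some held a stronger region: the highest folds were 7.53 and 8.21 in Pgs1, 6.69 and 7.23 in Ppp1r3f and 7.98 and 9.34 in Plekha2.

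Of the Th2 genes, 18 were listed and 13 had eligible sequence in intron 1, only 0.0722 Mb in all, and 3 of them held members (23.1%, 8.18 to 50.3%, against 16.4% of all genes). That is 55.4 regions per Mb, from 4 regions, against 21.5 over all genes and 32.0 over genes with an open promoter. Il4, the signature cytokine, held 1 at chr11:53614587-53615532, 2.28 kb from its start, with folds of 2.48 and 2.98 on pileups of 43 and 61 counts. It was among the weakest members by fold, while its pileups were above the medians of 33 and 47. Il4ra, the receptor chain for IL-4 and IL-13, held 2. The one at chr7:125554086-125555550 had folds of 4.42 and 6.09 and AP-1, STAT and BACH/MAF matches, and the one at chr7:125560751-125561761 had 4.66 and 7.23 with TCF/LEF, E-box and STAT matches. The single member of Pparg, whose STAT window is printed above, spans chr6:115382494-115383308 and ranked among the strongest, with pileups of 83 and 158. Its centre lay 798 bp from an annotated transcript start, when transcripts of every kind are counted. The introns of Il5, Il13, Stat6, Ccr4, Ccr8, Areg, Il10, Il24, Ptgdr2 and Rnf128 held none, and of these only Rnf128 has an intron 1 longer than 4 kb.

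The other T cell lists held more. Of 30 listed T cell transcription factors with eligible sequence 22 had a member (73.3%, 55.6 to 85.8%), of 21 genes of antigen receptor signalling and costimulation 16, of 16 cytokine receptor and JAK-STAT genes 11, and of 15 adhesion and migration genes 10. The median number of members was 2, 2, 1 and 1 in these lists, against 0 over all 15154 genes, of which 16.4% had any. Their introns were long, with medians of 13.2 to 18.5 kb against 4.88 kb. Per Mb of eligible intron the lists held 73.2, 109, 118 and 89.4 regions, against 21.5 over all genes. All gene lists here, that of Th2 genes included, were chosen with earlier results of these data known. Their excess over all genes is therefore a description and not independent of the data. Most of these listed genes had an open promoter. All genes with an open promoter held 32.0 per Mb, and 22.5% of them had a member. With an open promoter and an intron 1 of 5 to 20 kb the values were 35.3 per Mb and 25.5%. In the signalling list Prkcq led, and Cd247 and Plcg1 held 4 each. Plcg1 encodes a phospholipase of antigen receptor signalling. Among cytokine receptor genes Jak1 held 9, Il2ra, the high-affinity chain of the IL-2 receptor, 8 in 31.2 kb, and Il6ra 4. The members of Il2ra were dense but weak, with median folds of 2.51 and 3.01, and those of Jak1 had 4.26 and 4.32. In the adhesion list Elmo1 led, then Dock2 with 3, and Arhgap15, Ccr7, Cd44, Itgae and Selplg with 2 each. Ccr7, a chemokine receptor for homing to lymph nodes, had its 2 in an intron of 5.90 kb.

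Lists of genes of other cells held from 0 to 2 members each, and the 95% intervals of their shares of genes with a member all included the 16.4% of all genes. Of 9 B cell genes with eligible sequence 2 had one (22.2%, 6.32 to 54.7%), at 16.2 regions per Mb. Pax5, the B lineage factor, and Bank1 held 1 each, with folds of 7.55 and 7.53 for Pax5 and 5.64 and 4.97 for Bank1. None of 8 myeloid and mast cell genes held any, but their introns gave only 0.0412 Mb, in which a count of 0 allows up to 72.8 per Mb (3 counts). None of 12 long neuronal genes held any in 3.38 Mb, which allows up to 0.887 per Mb, below the 21.5 per Mb of all genes. Their introns were long, with a median of 257 kb. All genes with an intron 1 over 100 kb and no open promoter held 3.06 per Mb, a closer comparison. Of 9 housekeeping genes only Tubb5, a tubulin gene, held 1 (11.1%, 1.99 to 43.5%; 42.2 per Mb, from 1 region), with folds of 2.03 and 2.44 at 1.43 kb from its start. None of the 12 neuronal genes had an open promoter.

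Motif matches were counted in the 200 bp around each member's summit in replicate 1 and in equally wide comparison windows 1 kb to the side, outside every open region (4634 of the 4675 members had one). Matches on either strand counted, and a match describes letters, not binding. The letters searched were TGANTCA for AP-1, AGGAAG for ETS, TGTGGT for RUNX, AGATAA for the GATA family, GGAAAA for NFAT, CTTTGA for TCF/LEF, CAGNTG and CACGTG for E-boxes, TTCNNNGAA for STAT, GGGGNGGGG for KLF/SP and TGCTGA for BACH/MAF, with longer patterns for STAT6, IRF, NRF1, CTCF and NF-kB. Some overlap: a single stretch can match AP-1 and BACH/MAF, which share TGA, or ETS, NFAT, IRF and STAT, which share GAA. Of the 16 motifs, 15 had a higher share at summits than in comparison windows, 11 of them with intervals that did not overlap, and 1, NFAT, was lower.

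AP-1 letters stood out in size. They were found at 28.7% of first-intron summits (27.4 to 30.0%), in 5.11% of comparison windows (4.52 to 5.79%), and in 21.2% of all shared regions. With summits taken from replicate 2 the share was 29.8%. ETS letters were found at 38.1% of summits and in 22.8% of comparison windows (32.3% of all shared regions), RUNX letters at 23.1% and in 16.2% (18.5%), and STAT letters at 12.5% and in 5.98% (10.1%). TCF/LEF had 17.4% and 13.8% (14.3%), BACH/MAF 19.8% and 15.4% (16.1%), IRF 5.50% and 3.22% (4.19%), NF-kB 4.09% and 1.83% (4.04%), and STAT6 6.84% and 5.14% (5.84%). CTCF had the largest ratio, from small numbers: 97 summits (2.07%) and 4 comparison windows (0.0863%).

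Not every motif of the Th2 program was raised at summits. GATA letters were found at 12.1% of summits (11.2 to 13.1%) and in 11.1% of comparison windows (10.2 to 12.1%), with overlapping intervals, against 9.31% of all shared regions. With the list of replicate 2 alone the ratio of the GATA shares was 0.9998. NFAT letters were less frequent at summits, with 12.3% (11.4 to 13.3%) against 17.4% (16.4 to 18.6%), and were in 12.6% of all shared regions. KLF/SP had 6.27% and 5.18% (10.7% of all shared regions), the E-box CAGNTG 43.8% and 41.0% (40.7%), and NRF1 0.171% and 0.0432% (2.36%), each with overlapping intervals. The E-box CACGTG was higher at summits with intervals apart, at 3.51% (3.02 to 4.07%) against 2.503% (2.09 to 2.99%), and was in 4.66% of all shared regions.

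**Figure D4:**
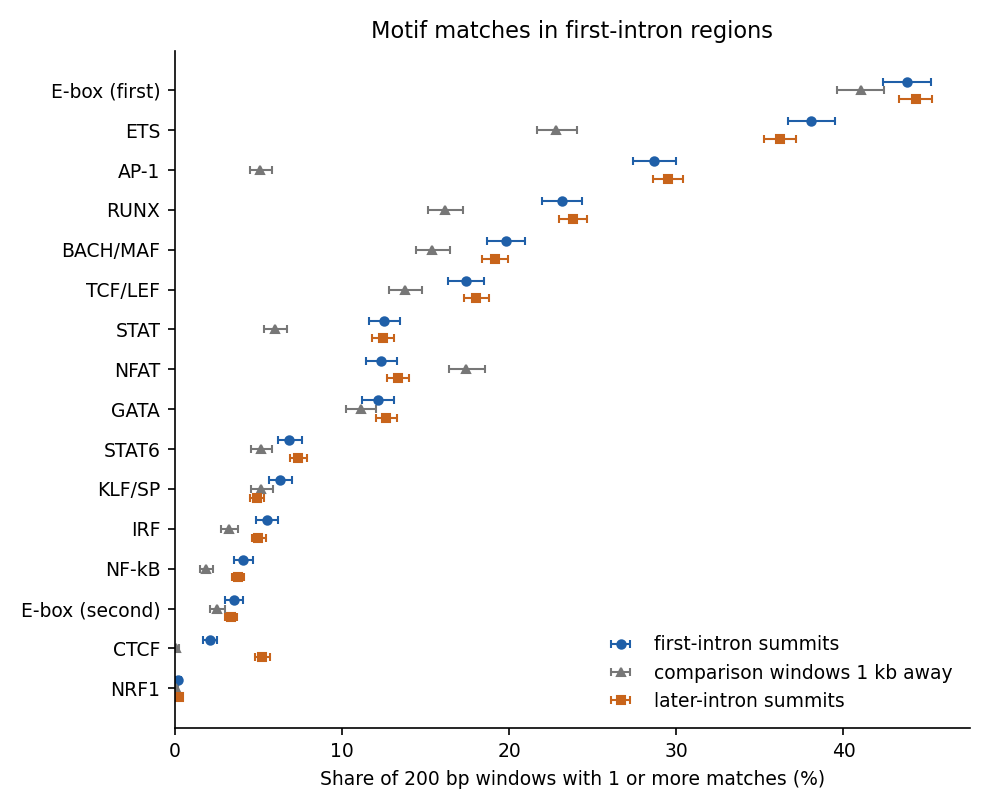
Share of 200 bp windows with at least 1 match (horizontal, percent, with 95% Wilson intervals) for 16 motifs at first-intron summits, in comparison windows 1 kb away and at later-intron summits; E-box (first) is CAGNTG and E-box (second) CACGTG. AP-1 shows the widest gap between first-intron summits (28.7%) and comparison windows (5.11%), and CTCF the clearest gap to later introns.

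Set against later introns, 14 of the 16 motifs had overlapping intervals, AP-1 among them (28.7% and 29.5%). The exceptions were CTCF and KLF/SP. CTCF letters were found at 2.07% of first-intron summits (1.704 to 2.52%), 5.22% of later-intron summits (4.799 to 5.67%) and 5.88% of intergenic ones. Gm20388 contributed 14 of the 97 CTCF matches, 10.9% of its 129 regions, and without it the shares were 1.82% and 5.23%. The gap was there on both sides of the promoter split: 1.72% in first introns and 4.78% in later introns of genes with an open promoter, and 4.03% and 6.89% in the other genes, where the intervals (2.82 to 5.73% and 5.88 to 8.07%) did not overlap. By distance to the start of the gene, CTCF shares in first introns were 2.73% at 2 to 5 kb and 1.47% at 10 to 20 kb, against 7.72% and 6.43% in later introns. Beyond 100 kb they were 5.07% and 3.97%, with overlapping intervals, and that bin holds regions of Gm20388. KLF/SP letters were found at 6.27% of first-intron summits (5.61 to 6.999%) and 4.89% of later-intron summits (4.48 to 5.33%). Their share in first introns was 11.7% at 1 to 2 kb from the start and 4.91% at 10 to 20 kb, against 14.0% and 5.78% in later introns. At 20 to 50 kb the order was the other way, with 6.17% and 4.24% and overlapping intervals (4.91 to 7.74% and 3.54 to 5.08%).

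The AP-1 share went with strength. In the strongest of the 5 bins by fold rank, with median folds of 9.67 and 10.9, 40.2% of summits held AP-1 letters. The next bins had 36.0%, 29.0%, 22.1% and, at median folds of 3.18 and 3.36, 16.3%. ETS ran only from 38.8% to 35.3% and RUNX from 24.6% to 21.5% between the same ends. Members with an AP-1 match had median folds of 5.90 and 7.07, and members without one 4.98 and 5.50. The numbers of AP-1, ETS and RUNX motifs together showed the same gradation: 76 members with all 3 had median folds of 7.10 and 7.82 and a width of 720.5 bp, and 1530 members with none had 4.88 and 5.49 and a width of 609.5 bp. All 3 were found at 1.63% of summits and in 0.108% of comparison windows.

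Matches of AP-1, ETS and RUNX were most frequent near the summits. In 20 bp steps, AP-1 letters occurred 2.03 times per kb within 20 bp of the summits of replicate 1 and 0.307 times per kb at 400 to 500 bp, and 2.16 and 0.307 times around the summits of replicate 2. ETS ran at 2.93 and 1.63 per kb and RUNX at 1.52 and 0.938. NFAT letters showed a dip, with 0.449 per kb at the summits and 1.12 at 400 to 500 bp. CTCF letters were most frequent 20 to 40 bp from the summit, at 0.374 per kb for replicate 1. Within 20 bp they occurred 0.0107 times per kb, and at 400 to 500 bp 0.00856 times. GATA letters occurred 0.519 times per kb within 20 bp of the summits of replicate 1 and 0.581 times at 400 to 500 bp, and 0.497 and 0.590 times for replicate 2. On the 2 sides at 20 to 40 bp they occurred 0.791 and 0.738 times per kb for replicate 1 and 0.834 and 0.824 times for replicate 2. These rates were above the rate at 400 to 500 bp. For replicate 1, however, the highest step lay 260 to 280 bp from the summit, at 0.802 per kb. The 20 to 40 bp steps thus did not stand apart from the scatter of that profile. For replicate 2 the highest step was at 20 to 40 bp.

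**Figure D5:**
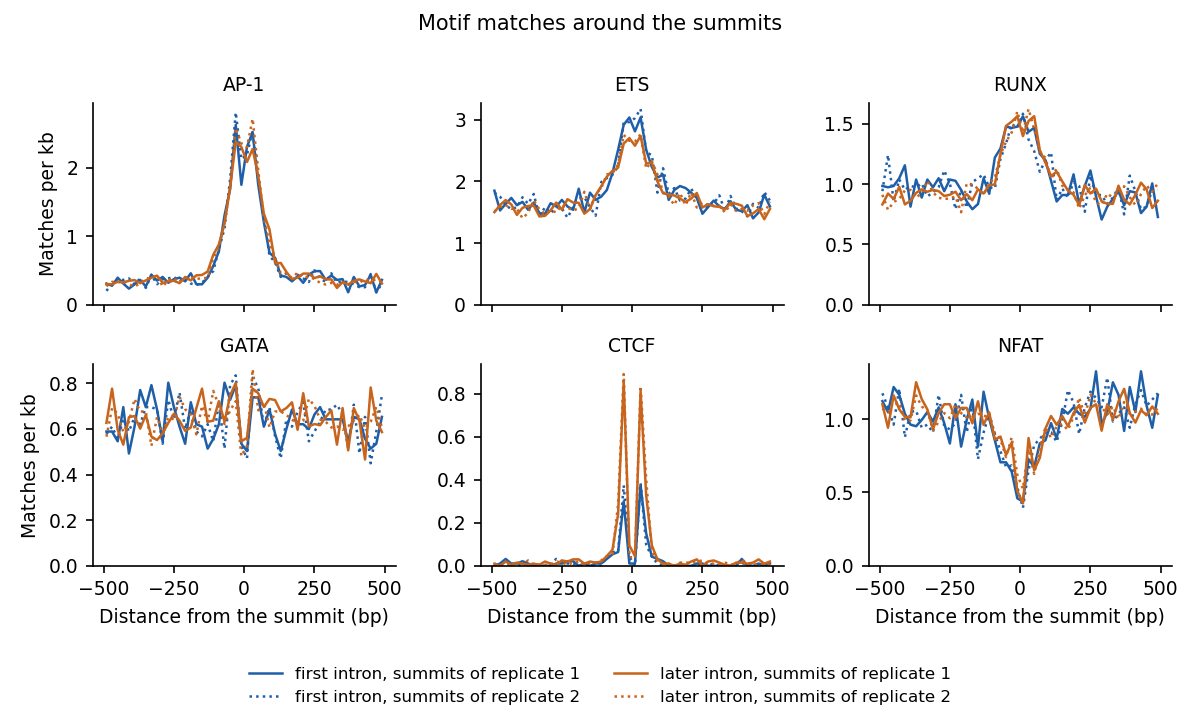
Motif matches per kb (vertical) by distance from the summit in 20 bp steps (horizontal, bp) for 6 motifs, in first introns and later introns, with summits of replicate 1 (solid) and replicate 2 (dotted). AP-1, ETS and RUNX rise at the summit, CTCF shows a pair of peaks beside it that are higher in later introns, and NFAT dips.

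The base composition of members was that of distal rather than promoter DNA. The median GC content of the summit windows was 47.5%, against 44.5% in their comparison windows, 47.0% in later introns and 65.5% at promoters. The median ratio of observed to expected CpG was 0.202 in members, 0.195 in later introns and 0.825 at promoters. Repeats masked in the genome covered 11.6% of the summit windows and 26.1% of the comparison windows. Only 136 members (2.91%) were CpG-rich, with at least 55% GC and a CpG ratio of at least 0.6. They lay nearer to the start, at a median of 4.10 kb against 14.8 kb for the other members, and 5.88% of them held AP-1 letters against 29.4%. Of the CpG-rich members 39.7% were within 1 kb of an annotated start of any transcript, non-coding ones included, against 7.29% of the others. In all, 385 members (8.24%) had such a start within 1 kb and 69 (1.48%) the start of a long non-coding RNA.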

How the data were processed

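ATAC-seq of 2 libraries of primary mouse Th2 cells was used as deposited peak lists, 1 per library (51557 and 60891 peaks). Per the file headers, each list was made from the alignments of its own library on mm10, so replicates were not pooled. No source used here gives the aligner, the peak caller, the transposase shift or the depth. Peak names carry words for masking, duplicate removal, a time in hours and an ASTARR insert, which no source used here explains; if inserts of a cloned library were sequenced, folds would describe those. The fold enrichment at the summit (column 7), a ratio, is the authors' deposited value and was used to describe and rank regions. The deposited −log10 p-values and −log10 q-values are the authors' too; the score and the summit offset were deposited beside them, and the score was not used.

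From fold and p, whole-number pileups that return −log10 p within 0.001 were found for all 4675 members in both lists, under a Poisson model with a pseudocount of 1. What a pileup counts is not stated.

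Lists were joined at 1 bp. Transcripts came from the GENCODE M21 basic annotation of GRCm38, the longest by summed exon length. Windows of 200 bp at summits were searched against windows 1 kb away. Intervals are Wilson (shares) or exact Poisson (densities) at 95%. No test was run, since the design has 1 group. Genes were named by rule: the 20 with most members with ties, the 15 strongest, the 5 farthest, widest and densest, all Th2 list members and the 3 leading members of each other list, with some items not reported here. Members and lists were chosen with earlier results of these data known, and the split by promoter state, the introns of 5 to 100 kb and the CpG-rich group after values were seen. Python 3.11.15, numpy 2.4.6, pandas 2.3.3, scipy 1.17.1 and bedtools 2.31.1 were used, and the steps were tested on simulated data. The alternatives were another overlap, a stricter q, other transcript, start and exon rules, other windows, and 1 replicate alone.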

Additional observations from a re-analysis of the deposited data

How the results depend on the processing

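The direction of the density ratio, of first over later introns, held under every alternative run: it was 1.42 at 50% reciprocal overlap, 1.46 at −log10 q of at least 10, 1.41 with the summit placing the region, 1.37 with the longest transcript by span, 1.34 with intron 1 of any transcript, 1.38 over 2.5 kb from a start and 1.40 without Gm20388 (added after seeing the data). The stricter q moved most values: 2612 members, a share of 9.27% of shared regions, a median distance of 14860 bp, a width of 750.5 bp, folds of 6.91 and 7.61, and 10.9% of genes with a member. Over 2.5 kb from a start the share was 9.27%, the distance 17109 bp and the share of genes 19.97%. The median distance was 14347 bp at 50% overlap, 14316 bp by summit, 15162 bp by span, 13417 bp for any transcript and 13994 bp without Gm20388. GC content was 48.0% in 100 bp windows and 47.0% without Gm20388. With 1 replicate alone there were 5647 to 7144 members, 10.97 to 11.8% of regions, at 14204 to 14413 bp and 422 to 442 bp wide (single peaks are not joined), with folds of 4.70 in replicate 1 and 4.74 in replicate 2, density ratios of 1.37 to 1.38, 18.8 to 21.5% of genes, 63 to 64 T cell list genes with a member, 14 to 15 of 16 motifs higher at summits, a GC content of 47.5% and CpG ratios of 0.190 to 0.196. The T cell list genes with a member numbered 62 with both replicates, 52 at the stricter q, 54 over 2.5 kb from a start, 56 at 50% overlap, and 57 and 58 for any transcript and by span. The GATA ratio of summits over comparison windows, 1.09, reversed to 0.9998 without replicate 1 and was 1.08 without replicate 2. AP-1 ranged from 5.20 to 7.30, NFAT from 0.598 to 0.740, and CTCF in first over later introns from 0.347 to 0.510. No paired analysis was possible because there was 1 group and no comparison between groups. Depth was not stated, and a region in 1 list alone cannot be told apart from one too weak to pass in the other.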
